A study of Mus musculus with 2 samples.

Results

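C-type lectin receptors are membrane proteins with 1 or more C-type lectin-like domains, many of which bind sugars on microbes, glycoproteins or dying cells. Macrophages use some of them to take up ligand, such as the mannose receptor, and others to signal, either through the FcRγ chain with the kinase SYK and the adaptor CARD9 or through an inhibitory motif that recruits phosphatases. The mannose receptor (CD206) and the galactose-type lectins (CD301) are standard markers of macrophages activated by IL-4.

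Members were the 10 genes Mrc1, Mrc2, Clec10a, Mgl2, Clec7a, Clec4a2, Clec4d, Clec4e, Clec4n and Clec12a. Of these, 9 were among the 20656 genes that could be named on the array through a RefSeq accession. The members were read in bone marrow-derived macrophages (BMDMs) of male mice aged 8 weeks. The mice carried floxed Crif1 alleles (Crif1 f/f), shared by both conditions, and no Cre driver is named for the array samples. One RNA came from untreated cells and the other from cells given IL-4 for 18 h, with 18 h in both titles. A description that mentions IL-4 is attached to both samples, so the groups follow the titles and source names. The IL-4 culture received a dose that the sources used here do not give for the arrays. Whether animals were pooled is not given either. Each RNA, carrying the dye Cy3, was read on 1 Agilent mouse array. With 1 array per condition there is no replicate check on any difference and no p-value, and precision is limited by that number. The treatment, the culture and the position on the slide that both arrays share cannot be told apart.

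Of the 10 genes, 9 had a probe, and Mrc2 had a pair of them, so 10 probes were read in all. No probe carried an accession that the annotation assigns to Clec7a, the β-glucan receptor Dectin-1, and it was not analysed here. Probes whose accession is not in that annotation stayed unnamed, so this does not say that the array lacks a Clec7a probe. The intensities below are background-subtracted by the scanner software and not scaled between arrays. Log2 differences are IL-4 minus untreated after each array was scaled to its own 75th percentile. Whether a probe was well above background is the software's own flag. Where it was so on a single array, a lower bound is given, taken against the dim probe's own signal or that array's lowest signal with the flag set, whichever was higher. Each receptor probe was printed in 1 spot, so the error quoted is the SD of the log2 difference between spots of other probes of similar intensity that were printed several times, which leaves out how far cultures differ. No receptor spot was flagged as an outlier or saturated.

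IL-4-treated BMDMs had at least 2-fold more signal for 4 of the 8 receptor genes that stood well above background on either array (Clec10a, Mrc1, Clec4a2 and Mgl2). Clec4a2 passed that filter only through the IL-4 array, where it was higher, and its value is a lower bound. Of the 7 receptors measured on both arrays 3 were at least 2-fold higher, beside 295 of all 12744 genes so measured. For 2 of the 8, Clec4d and Clec4n, the signal was lower by at least 2-fold. Clec4e and Mrc2 lay close to 0, and Clec12a was well above background on neither array. Among all 14073 genes that passed the same filter, the share past 2-fold was 3.06% in the higher direction and 3.35% in the lower one, and the receptors were not tested against them. Of all genes past 2-fold, 47.7% were higher (431 genes), and this share was 67.7% with median scaling, 64.9% with quantile normalization, 59.7% with cyclic loess, 57.8% without scaling and 73.3% with spike-in scaling. It was 42.2% when the percentile was taken over probes above background on both arrays, 40.3% in the authors' processed values and 29.8% when dim probes were kept. The median log2 difference of the 7 receptors measured on both arrays was 0.10, beside -0.01 over all genes measured on both. The median hides a wide spread, from -1.68 for Clec4d to 3.90 for Clec10a.

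**Figure D1:**
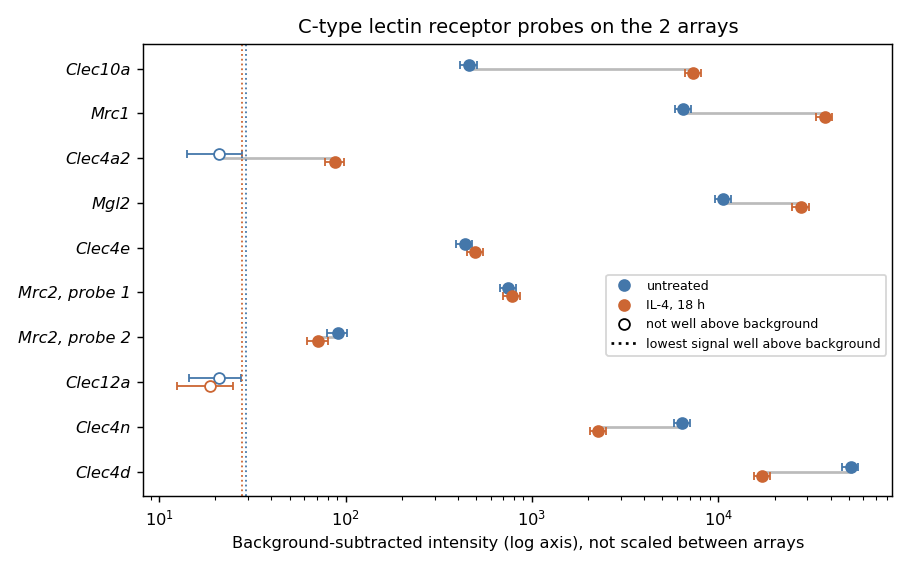
Background-subtracted intensity of each receptor probe on a log axis, for the untreated array (blue) and the IL-4 array (orange), with bars for the error the scanner software gives for the spot. Open circles were not well above background, and dotted lines mark the lowest signal that was, 29.2 (untreated) and 27.9 (IL-4). Clec10a, Mrc1 and Mgl2 lie well to the right after IL-4 and Clec4n and Clec4d to the left.

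The galactose-type lectins were both higher after IL-4, to different degrees. Clec10a encodes MGL1 (CD301a), which binds terminal galactose and N-acetylgalactosamine, and its intensity was 459.7 in untreated BMDMs and 7329.9 after IL-4. This is a 14.9-fold higher signal, with a log2 difference of 3.90 and a spot SD of 0.058. Among the 12744 genes measured on both arrays, Clec10a had rank 10 from the highest difference. Mgl2 encodes the neighboring lectin CD301b, a marker of IL-4-activated macrophages and of a subset of dermal dendritic cells.

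Mgl2 had an intensity of 10589.7 in untreated BMDMs and 27679 after IL-4. Its log2 difference was 1.29 with a spot SD of 0.046, a 2.44-fold higher signal at rank 167 of the same genes. The genes are adjacent on chromosome 11, with no other protein-coding gene between them in the annotation. Their log2 differences were 2.61 apart, against a combined spot SD of 0.074. The files do not give the probe sequences, so whether either probe also reads the other transcript was not tested.

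The 2 mannose receptor family members on the list had different values. Mrc1 encodes the mannose receptor CD206, an endocytic receptor for mannosylated glycoproteins and collagen. Its intensity was 6494 in untreated BMDMs and 37112 after IL-4, a log2 difference of 2.42 with a spot SD of 0.046, or 5.33-fold, at rank 33 of the genes measured on both arrays. Mrc2 encodes Endo180, a collagen-uptake receptor known mainly from fibroblasts.

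The brighter Mrc2 probe read 744 in untreated BMDMs and 781 after IL-4. Its log2 difference of -0.03 was within the spot SD of 0.061, and its sign turned to positive with median scaling (0.18), without scaling (0.07) and with spike-in scaling (0.25). The dimmer Mrc2 probe read 90.7 and 71.3, with a log2 difference of -0.45 and a spot SD of 0.19. A spike-in RNA of similar intensity, added to both samples, differed by -0.70 on the same scale (SD 0.19, 30 spots), and the part of such an offset in the dim Mrc2 value was not tested. The log2 difference of Mrc1 exceeded that of Mrc2 by 2.45, against a combined spot SD of 0.076.

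Clec4a2 and Clec12a encode receptors with an inhibitory motif, and both were dim. Clec4a2 encodes DCIR, and its intensity was 20.8 in untreated BMDMs, not well above background, and 87.7 after IL-4. The signal was therefore at least 2.80-fold higher after IL-4, a lower bound of 1.49 on the log2 scale, with a spot SD of 0.28. Before background subtraction the spot read 86.5 and 165, where the negative control spots had a median of 57 on each array. With normexp, a background model that compresses dim signals, the bound was 0.52 and under 2-fold.

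The Clec4a2 probe was designed on 1 of the 3 curated transcripts of the gene, and whether it reads the others was not tested. The same limit holds for the probes of Clec10a (1 of 2 curated transcripts), Clec4d (1 of 2) and Clec4n (1 of 3). Clec12a encodes MICL, a receptor for uric acid crystals and dead cells. It read 21.0 and 18.7, on neither array well above background, so no fold is given and its level is only bounded by the detection limit.

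**Figure D2:**
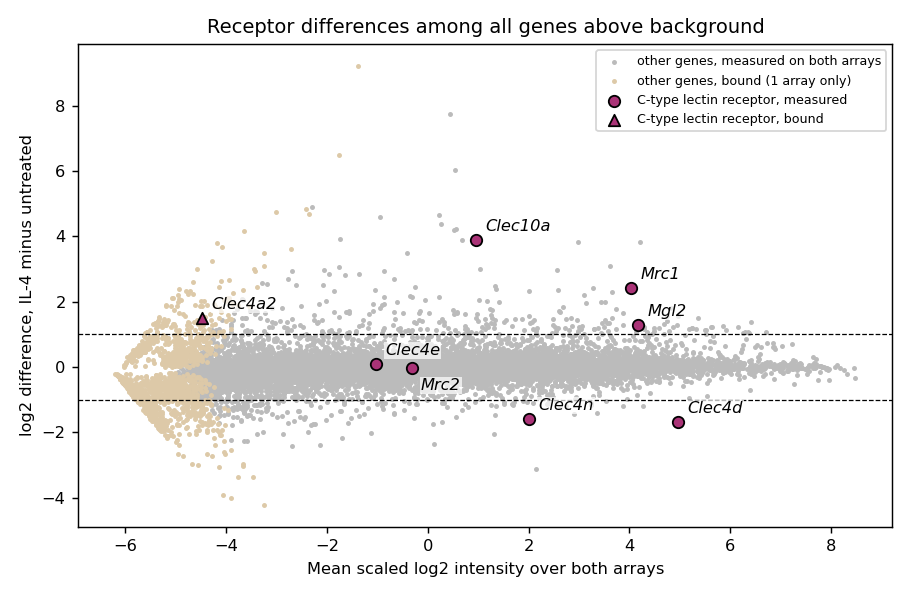
Log2 difference (IL-4 minus untreated) against mean scaled log2 intensity over both arrays for all genes above background on at least 1 array (grey measured on both, tan a bound) and for the receptors (purple, a triangle for a bound). Dashed lines mark a 2-fold difference. Clec10a, Mrc1 and Mgl2 lie above the upper line and Clec4n and Clec4d below the lower one, while Clec4e and Mrc2 lie within the bulk of genes.

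The FcRγ-coupled Clec4 receptors among the members, Clec4d, Clec4n and Clec4e, had different values. Listed Clec4 genes outside the members that were measured on both arrays lay within 2-fold. These were Clec4b1 (-0.88), Clec4a1 (-0.31) and Clec4a3 (0.72), named after their values were seen. Clec4d encodes MCL, which pairs with Mincle and binds mycobacterial glycolipid. Its intensity was 51256 in untreated BMDMs and 17187 after IL-4, a log2 difference of -1.68 with a spot SD of 0.044. The signal was thus 3.20-fold lower after IL-4, at rank 24 from the lowest difference among the 12744 genes measured on both arrays.

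Clec4n encodes Dectin-2, a receptor for fungal α-mannan. It read 6408 in untreated BMDMs and 2271 after IL-4, a log2 difference of -1.60 with a spot SD of 0.053. This is a 3.02-fold lower signal at rank 30 of the same genes. The Clec4d and Clec4n differences were 0.08 apart, with a combined spot SD of 0.069.

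Clec4e encodes Mincle, the receptor for trehalose dimycolate that responds to microbial stimuli. It read 434 in untreated BMDMs and 497 after IL-4, a log2 difference of 0.10 with a spot SD of 0.066. It stayed between 0.04 and 0.38 under the alternative settings, never 2-fold. Its log2 difference lay above that of Clec4d by 1.77 (combined spot SD 0.079) and above that of Clec4n by 1.69 (combined spot SD 0.084), so Mincle did not share the lower signal of its 2 neighbors. These contrasts rest on 1 array per condition.

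Along chromosome 6 the annotation places Clec4a2, Clec4b2, Clec4n, Clec4d and Clec4e next to each other in this order, with no other protein-coding gene between them. Within these 5 genes the difference changed from at least 1.49 at Clec4a2 through -1.60 and -1.68 at Clec4n and Clec4d to 0.10 at Clec4e, and Clec4b2 was well above background on neither array. Further along the chromosome, the stretch from Clec12a to Clec7a holds 6 genes, of which Clec12a, Clec12b and Clec9a were well above background on neither array. Clec1b, the platelet receptor CLEC-2, had a log2 difference of -0.83 there, and its 3 probes lay between -0.83 and -0.65.

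**Figure D3:**
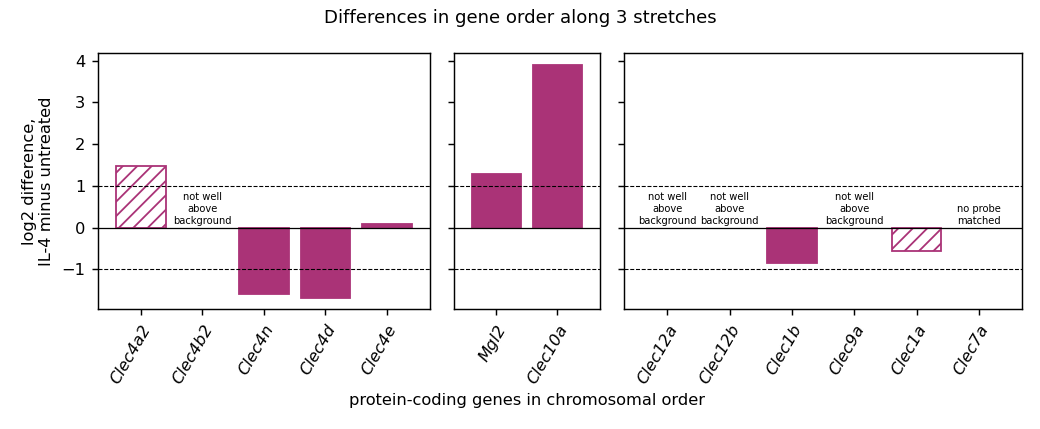
Log2 difference (IL-4 minus untreated) of protein-coding genes in chromosomal order, for the stretch from Clec4a2 to Clec4e, for Mgl2 and Clec10a, and for the stretch from Clec12a to Clec7a. Solid bars were measured on both arrays, hatched bars are bounds and dashed lines mark a 2-fold difference. Neighbors differ in direction in the first stretch and share it in the second.

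The region before the start site is shown for genes that were higher (Mrc1, Mgl2 and Clec4a2), for 1 that was lower (Clec4d) and for its neighbor Clec4e, so that the windows of genes with different responses can be read side by side. Sequences are from RefSeq for GRCm38.p6, whereas the array was annotated on mm9, and each line gives the 250 bases before the start site on the gene's strand. Of the 10 genes, 7 had an entry. Capitals mark matches on either strand to TTC and GAA with 4 bases between them, the spacing favored by STAT6, to TTCNNNGAA, the spacing of other STATs, and to GAGGAA, a core bound by the macrophage factor PU.1. Among 32536 distinct windows of this length, 5.89% hold the first motif, 7.04% the second and 23.4% the third, and the motifs did not overlap in the windows printed.
Mrc1 chr2:14229164-14229413, plus strand: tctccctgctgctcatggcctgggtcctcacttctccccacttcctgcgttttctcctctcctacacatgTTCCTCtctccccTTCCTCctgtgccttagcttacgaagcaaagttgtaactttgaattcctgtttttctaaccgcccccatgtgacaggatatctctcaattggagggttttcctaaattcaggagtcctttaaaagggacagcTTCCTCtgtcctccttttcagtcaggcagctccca
Mgl2 chr11:70130107-70130356, plus strand: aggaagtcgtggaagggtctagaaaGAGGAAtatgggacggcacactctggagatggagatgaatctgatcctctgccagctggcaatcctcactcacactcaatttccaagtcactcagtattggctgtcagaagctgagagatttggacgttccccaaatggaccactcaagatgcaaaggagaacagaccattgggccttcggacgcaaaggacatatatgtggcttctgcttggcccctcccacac
Clec4a2 chr6:123122440-123122689, plus strand: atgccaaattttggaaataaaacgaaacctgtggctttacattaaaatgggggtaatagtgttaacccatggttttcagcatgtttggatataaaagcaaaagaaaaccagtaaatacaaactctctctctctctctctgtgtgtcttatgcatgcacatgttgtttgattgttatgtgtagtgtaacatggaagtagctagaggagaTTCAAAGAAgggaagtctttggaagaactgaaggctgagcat
Clec4d chr6:123261857-123262106, plus strand: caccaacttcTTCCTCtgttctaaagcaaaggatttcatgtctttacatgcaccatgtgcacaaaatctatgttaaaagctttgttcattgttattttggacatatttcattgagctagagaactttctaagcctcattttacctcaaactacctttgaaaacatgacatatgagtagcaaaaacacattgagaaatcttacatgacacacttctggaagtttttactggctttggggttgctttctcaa
Clec4e chr6:123289872-123290121, minus strand: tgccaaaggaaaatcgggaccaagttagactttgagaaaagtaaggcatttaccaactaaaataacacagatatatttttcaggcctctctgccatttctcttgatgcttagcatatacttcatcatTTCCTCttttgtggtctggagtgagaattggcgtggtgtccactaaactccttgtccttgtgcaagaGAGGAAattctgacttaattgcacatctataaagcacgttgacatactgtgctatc

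The STAT6-type spacing was not found in any of these 5 windows. Among receptors with an entry, it was found in Clec7a, as 1 match shared by its overlapping windows, 131 and 125 bases before the start sites, and Clec7a has no intensity to set beside it. The other STAT spacing occurred once, in the Clec4a2 window, with its first base 42 bases before the start site. GAGGAA or its complement occurred 3 times in the Mrc1 window, with the nearest match 35 bases before the start site, and 2 times in the Clec4e window. It occurred once each in the windows of Mgl2 and Clec4d. These matches describe the letters only, and binding was not measured.

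Other C-type lectin receptors were read from a list of 31 genes, all of which had a probe. Background was exceeded on either array by 19 of them, of which 3 were higher after IL-4 by 2-fold or more and 13 were measured on both arrays and within 2-fold. For the other 3 only a bound on a decrease could be given, at least 1.47-fold for Clec1a, 1.66-fold for Clec4f and 1.60-fold for Pla2r1, so a decrease of 2-fold or more was neither shown nor excluded by these values. Clec1a and Clec4f, named after their values were seen, were past 2-fold in the authors' processed values and when dim probes were kept. How far the lower values of Clec1a, Clec4f and Pla2r1 hold the offset of dim spike-in RNAs, given below, was not tested. Of the higher genes, Cd209e and Olr1 passed the background filter only through the IL-4 array, where they were higher. Among the 14 measured on both arrays Asgr1 alone was at least 2-fold higher, beside 295 of all 12744 genes so measured. Over all 14073 genes above background on either array, the higher share was 3.06%. The median log2 difference of the 14 measured on both arrays was -0.28, beside -0.01 over all genes. Cd209e, a mouse relative of DC-SIGN, read 6.85 in untreated BMDMs, not well above background, and 114 after IL-4, and was thus at least 3.63-fold higher.

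Asgr1, a subunit of the asialoglycoprotein receptor, read 57.4 and 215 at the brighter of its 2 probes. The log2 difference was 1.81 with a spot SD of 0.16. Its other probe was well above background on neither array and gives no value to set beside this. Olr1, the oxidized LDL receptor LOX-1, read 6.35, not well above background, and 87.3 after IL-4, at least 2.79-fold higher. With normexp none of these 3 dim genes was 2-fold higher. The remaining mannose receptor family members were dim and read lower on the IL-4 array. Ly75 (DEC-205) read 63.2 and 47.0, a log2 difference of -0.53 (spot SD 0.25). Pla2r1 read 41.7 and then 25.5, not well above background. Dim spike-in RNAs, added to both samples, differed by -0.70 (SD 0.19) and -2.54 (SD 0.46) over 30 spots each. On the untreated array their log2 intensities were 6.75 and 5.24. The part of such an offset in the Ly75 and Pla2r1 values was not tested.

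The signalling chain behind these receptors was read from 14 genes, all well above background on both arrays. Prkcd was at least 2-fold higher and the other 13 lay within 2-fold in either direction, with a median of -0.12. Prkcd encodes protein kinase Cδ, which acts on CARD9 downstream of SYK, and its intensity was 6613 in untreated BMDMs and 24254 after IL-4. Its log2 difference was 1.78 at the brighter probe and 1.81 at the other, with a spot SD of 0.045.

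Fcer1g, the FcRγ chain that Clec4d, Clec4e and Clec4n need for signalling, read 81359 and 77103, a log2 difference of -0.18 with a spot SD of 0.039. Syk differed by -0.13 and Card9 by 0.23, with spot SDs of 0.050 and 0.12. The phosphatases Ptpn6 (SHP-1) and Ptpn11 (SHP-2), which inhibitory receptors recruit, differed by -0.03 and 0.08. The lower signal of Clec4d and Clec4n thus stood beside much smaller differences of their shared partner chain, and 1 array per condition gives no test of this contrast.

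**Figure D4:**
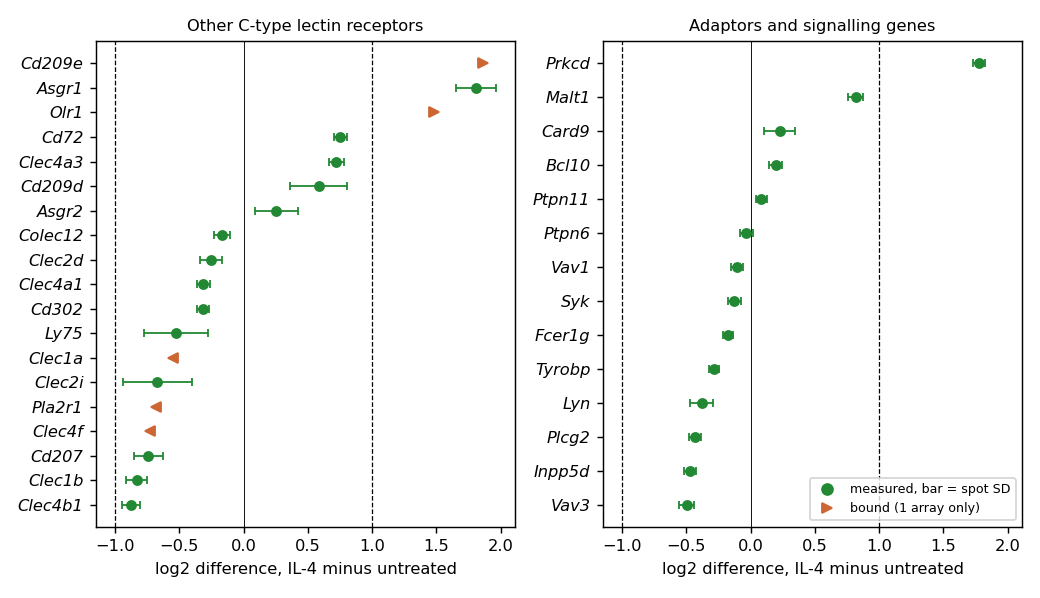
Log2 difference (IL-4 minus untreated) of the other C-type lectin receptors above background on at least 1 array (left) and of the adaptors and signalling genes (right), with dashed lines at a 2-fold difference. Circles were measured on both arrays with the spot SD as a bar, and triangles are bounds. Cd209e, Asgr1, Olr1 and Prkcd lie past the upper line, and no plotted value lies past the lower one, where 3 triangles are bounds on a decrease.

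The labels were checked against marker genes. Arg1, Retnla and Chil3, which IL-4 induces in macrophages, were all at least 2-fold higher on the IL-4 array. Of 8 macrophage markers 7 had a probe and all 7 were well above background on both arrays, with a median log2 difference of -0.71. Csf1r differed by 0.09 and Adgre1 (F4/80) by 0.17. Lyz2 differed by -0.70 and Itgam by -0.71 at its brightest probe (-0.24 and -0.27 at the others). Mertk (-1.14), Fcgr1 (-1.23) and Cd14 (-1.42) were at least 2-fold lower. Clec10a, Mgl2 and Clec4a2 are also known from dendritic cells. Of 8 dendritic cell markers 5 were well above background on both arrays, and all 8 together summed to an intensity of 44364 in untreated BMDMs and 64240 after IL-4. The brighter of 2 Siglech probes made up most of the untreated sum, with 29067 and 31659 and a log2 difference of 0.02. The other Siglech probe was well above background on neither array, so this part of the sums rests on 1 probe.

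Flt3, Xcr1 and Dpp4 did not pass the background flag on any array, and Zbtb46 read 48.2 and 36.1. Batf3 was the only marker of this list that was at least 2-fold higher, reading 312 and 6271, a log2 difference of 4.23. Itgax (CD11c) read 14856 and 26198, a log2 difference of 0.72. Itgax and then Batf3 made up most of the difference between the dendritic cell sums. The paper also uses CD11c to sort adipose macrophages, so these sums do not measure dendritic cells alone. All 6 fibroblast markers were well above background on both arrays, with a summed intensity of 95965 in untreated BMDMs and 85969 after IL-4 and log2 differences from -0.95 to 0.52. Mrc2 is known from fibroblasts, and the part of such cells in its signal was not tested. In these bulk samples fewer cells of a type and less RNA per cell cannot be told apart.

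All neutrophil markers with a probe, 7 of 8, were well above background on both arrays, with a summed intensity of 38439 and 37063 and none 2-fold changed. Of the 6 lymphocyte markers 2 were well above background on both arrays, and all 6 together, dim ones included, summed to 1847 and 1535, while Cd79a was so on neither. Of the 6 eosinophil, basophil and mast cell markers 3 were well above background on both arrays, and all 6 together, dim ones included, summed to 426 and 333. Epx and Fcer1a were not well above background on any array, and Cpa3, which read 91.2 and then 6.37, not well above background, was at least 3.51-fold lower and made up most of the difference between the sums. The part of these cells in the receptor signals was not tested. Nor was the part of the offset seen in dim spike-in RNAs in the lower Cpa3 value.

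**Figure D5:**
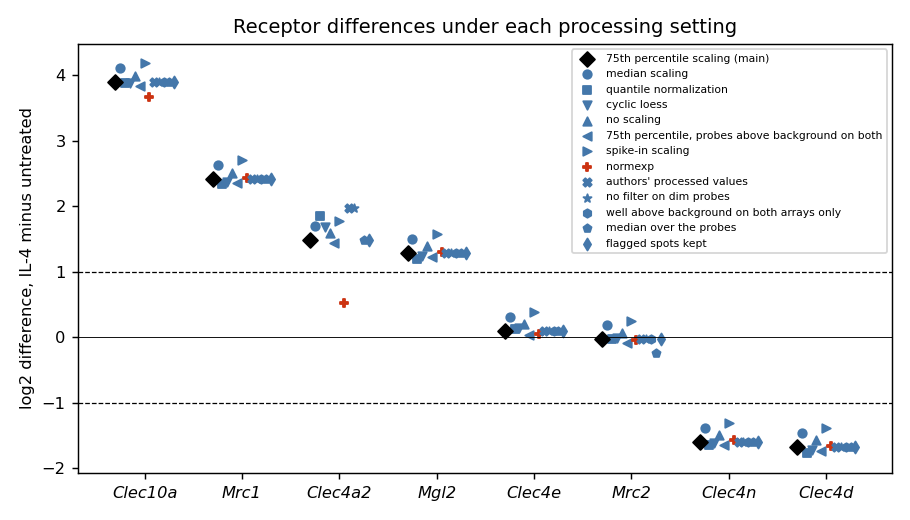
Log2 difference (IL-4 minus untreated) of each receptor above background under 75th percentile scaling (black) and 12 alternative settings, with normexp in red and dashed lines at a 2-fold difference. Clec10a, Mrc1 and Mgl2 stay above the upper line and Clec4n and Clec4d below the lower one in every setting shown, and Clec4a2 crosses the upper line with normexp, at 0.52.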

How the data were processed

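Per the file headers, the authors deposited 1 scanner file per array, made with Feature Extraction 10.10.1.1. Its processed intensity has background removed and a correction that differs between spots applied by the software (methods not given in the sources used here), with no scaling across arrays. The authors also deposited processed log2 values, for which tool, scale and centring are not given in the sources used here. Each probe of that table carries its own offset (column medians 0.16 and 0.02), and the receptors' differences between its columns matched those of the scanner intensity within 0.00057.

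Control spots and outlier spots (133 untreated, 159 IL-4) were dropped. Log2 intensity was averaged per probe and then set relative to its array's 75th percentile (9.84 untreated, 9.94 IL-4). Of 39424 probes, 27229 were named through RefSeq accessions of GRCm38.p6, used for names and gene order. On the arrays 59.8% (untreated) and 57.4% (IL-4) of spots were well above background. A gene was read from its brightest probe. The spot SD is the median over probes printed several times, 399 in all, whose mean log2 intensity lay within 1 of the receptor's. Values were computed in Python 3.11.15 with pandas 2.3.3 and numpy 2.4.6. Quantile, cyclic loess and normexp (offset 50) alternatives came from limma 3.58.1 under R 4.3.3. The step that counts changed genes was also run on simulated data. Its planted changes were large and lay in probes above background on both arrays, so the run says nothing on dim probes or bounds.

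Named genes are all members, the listed related genes that were at least 2-fold changed, direct signalling partners, mannose receptor family members and markers. Clec1a, Clec4f, Clec4b1, Clec4a1 and Clec4a3 were named after their values were seen. No gene was ranked by likeness of pattern, since 2 arrays give every pair of genes a correlation of 1 or -1. The members and lists were chosen with earlier results of these data known. Alternatives covered the scaling, the background step, the dim probe filter, several probes, flagged spots, the processed values and the cutoff. Clec7a was not analysed here, and the value of 1 lymphocyte marker is not reported here.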

Additional observations from a re-analysis of the deposited data

How the results depend on the processing

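Clec10a, Mrc1 and Mgl2 stayed at least 2-fold higher and Clec4d and Clec4n at least 2-fold lower in all 12 alternatives to the values, from 3.66 to 4.18, 2.34 to 2.70, 1.19 to 1.57, -1.77 to -1.39 and -1.65 to -1.31 on the log2 scale. Clec4a2 ranged from 0.52 with normexp to 1.97 in the authors' processed values and has no value among genes above background on both arrays. Mrc2 ranged from -0.24, with the median over its probes, to 0.25. The median over all genes, -0.01 here, was 0.20 under median scaling and 0.27 under spike-in scaling, a shift that every receptor shares.

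The higher receptors, 4 in all, numbered 3 with normexp and 3 when a gene had to be above background on both arrays. They numbered 2 at log2 cutoffs of 1.5 and 2 in place of 1. The lower receptors, 2 in all, numbered 0 at a cutoff of 2. The changed genes among related receptors and signalling genes, 4 in all, numbered 7 with spike-in scaling, 1 with normexp, 10 when dim probes were kept, 2 when a gene had to be above background on both arrays and 0 at a cutoff of 2. All changed genes, 903 in all, numbered 399 with normexp, 1457 from the processed table, 2958 when dim probes were kept, 479 when a gene had to be above background on both arrays, and 330 and 139 at cutoffs of 1.5 and 2. Filters and cutoffs change these counts by construction, and for the rest the cause was not tested. No paired analysis was possible because untreated and IL-4-treated BMDMs had 1 array each, and no replicate could be left out.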
